A study of Mus musculus with 9 samples.

Results

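The comparison described here sets 3 non-metastatic mammary tumours of MMTV-Wnt1 mice against 3 normal mammary glands, which together make 6 of the 9 arrays of the series. The arrays were chosen by their sample titles alone, and no measured value entered the choice. Each gene is represented by 1 log2 value per array, so a change of 1 is a doubling of signal, and every change below is the mean of the 3 tumours minus the mean of the 3 glands. The remaining 3 arrays are metastatic tumours of the same model.

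The transgene of MMTV-Wnt1 mice places Wnt1, which encodes a secreted signal, under the long terminal repeat of the mouse mammary tumour virus, a promoter active mainly in mammary epithelium. Wnt ligands bind Frizzled and Lrp5 or Lrp6 receptors, which stabilises beta-catenin and turns on target genes, among them several inhibitors of the pathway itself. The normal gland of an adult female mouse is a tree of epithelial ducts within a large pad of white fat, with fibroblasts, vessels and immune cells around both. A piece of gland therefore carries much adipocyte RNA, while a tumour of this model is a mass of epithelial and stromal cells.

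All mice were female and of the FVB strain, and 1 array was made per mouse from RNA of frozen tissue, so that replicates are separate animals. The glands came from littermates with wild-type Wnt1, aged 533, 556 and 538 days at collection. The tumours came from Wnt1+/- mice, arose at 306, 192 and 247 days and were collected at 354, 222 and 298 days, on reaching 20 mm. Mice of both genotypes drank 6% sucrose with doxycycline at 200 ug/ml, and the controls thus shared that treatment. Mice with tumours were 291.3 ± 66.3 days old at collection and control mice 542.3 ± 12.1 days (SD, n = 3 each). Tumour minus control ages came to -251 days (two-sided exact permutation p = 0.1, the lowest that 3 against 3 can reach). Age, genotype and tumour status cannot be told apart in this comparison. A whole gland stands beside a tumour mass, so a change in the share of a cell type cannot be told apart from less or more RNA of that gene per cell.

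Of 17478 genes tested, 3288 (18.8%) passed an adjusted p of 0.05, with 1959 higher in tumours (11.2% of all) and 1329 lower (7.60%), and the 2 groups did not overlap in 6328 genes (36.2%). The median change over all genes was 0.05. These shares and this median are the background for the counts and medians of every list below. Large changes were mostly downward, since 106 called genes fell by more than 3 log2 units and 6 rose by as much. The balance of counts moved with the scaling, from 59.6% higher among the called genes to 72.9% after centring the arrays on the median over all probe sets, which shifted the median change of all genes to 0.14. Leaving out normal gland 1 left 733 higher and 612 lower genes, and leaving out tumour 2 left 823 and 701. Metastatic tumours also entered the fit, and 1 gene (0.00572%) passed the threshold between them and the non-metastatic tumours.

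Wnt1 itself read 5.61, 5.45 and 5.71 in normal glands 1, 2 and 3, and 12.40, 11.85 and 11.80 in tumours 1, 2 and 3. The groups lay far apart, with a change of 6.43 (SE 0.25, adjusted p = 2.9e-05) and a fold of 85.9. The change was 6.35 without normal gland 2. The sources used here do not say whether the probe set sees the transgene, the endogenous transcript or both.

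**Figure D1:**
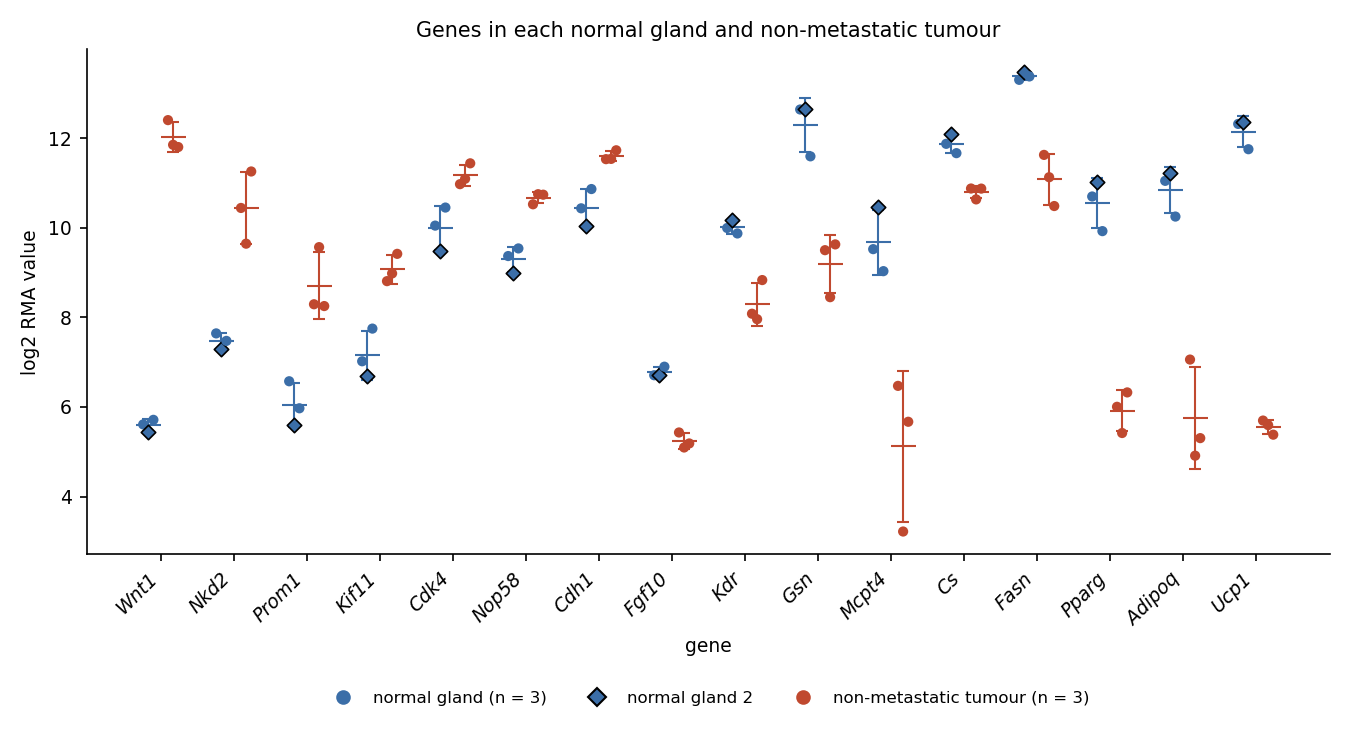
Log2 RMA value (vertical axis) of 16 genes in the 3 normal glands (blue, normal gland 2 as a diamond) and the 3 non-metastatic tumours (red), with the mean and SD of each group (n = 3). The genes were picked for display. Every gene shown has no overlap between the groups, as had 36.2% of all genes tested, and the widest gaps shown are those of Wnt1 and Ucp1.

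Normal gland 2 carried muscle and skin transcripts that the other glands did not. A list score averages its members on an array after each gene is centred on its own mean of 9 arrays. It was 2.52 for skeletal muscle genes in normal gland 2 against -0.49 and -0.35 in glands 1 and 3. The epidermal score was 2.69 against -0.87 and -1.01, and the milk score -2.62 against 0.92 and 1.16. Some luminal epithelial genes were low in the same gland, while the junction and basal scores were not lowest there. Krt8, a keratin of luminal epithelium, read 10.24, 8.60 and 10.22 in glands 1, 2 and 3, and Epcam, an epithelial surface protein, read 10.92, 9.81 and 11.07. Gland 2 was the lowest of the 3 for both genes.

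Leaving out normal gland 2 lowered the called share to 8.68%, with 809 higher (4.63% of genes) and 708 lower (4.05%), which is close to the counts without normal gland 1. The 1446 genes called with and without gland 2 all kept their sign, 1842 were called only with all arrays and 71 only without it. The 2 fits differ only in gland 2, so a turned sign among genes called in both was hardly possible. In the median gene the change moved by 0.07 when gland 2 was left out, against 0.05 for gland 1 and 0.07 for gland 3. Large moves lay in a small set of genes. There were 111 genes whose change moved by more than 1, against 9 for gland 1 and 12 for gland 3. Of the 111, 0 were called with all arrays (limma, adjusted p under 0.05). A move that large requires a wide spread among the glands, which hinders a call, so this 0 was largely set by the selection. The 111 included 17 of 24 epidermal, 16 of 35 skeletal muscle and 10 of 17 milk genes tested, the lists whose scores set gland 2 apart above. Among called genes the largest move was 0.94, with the same limit.

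**Figure D2:**
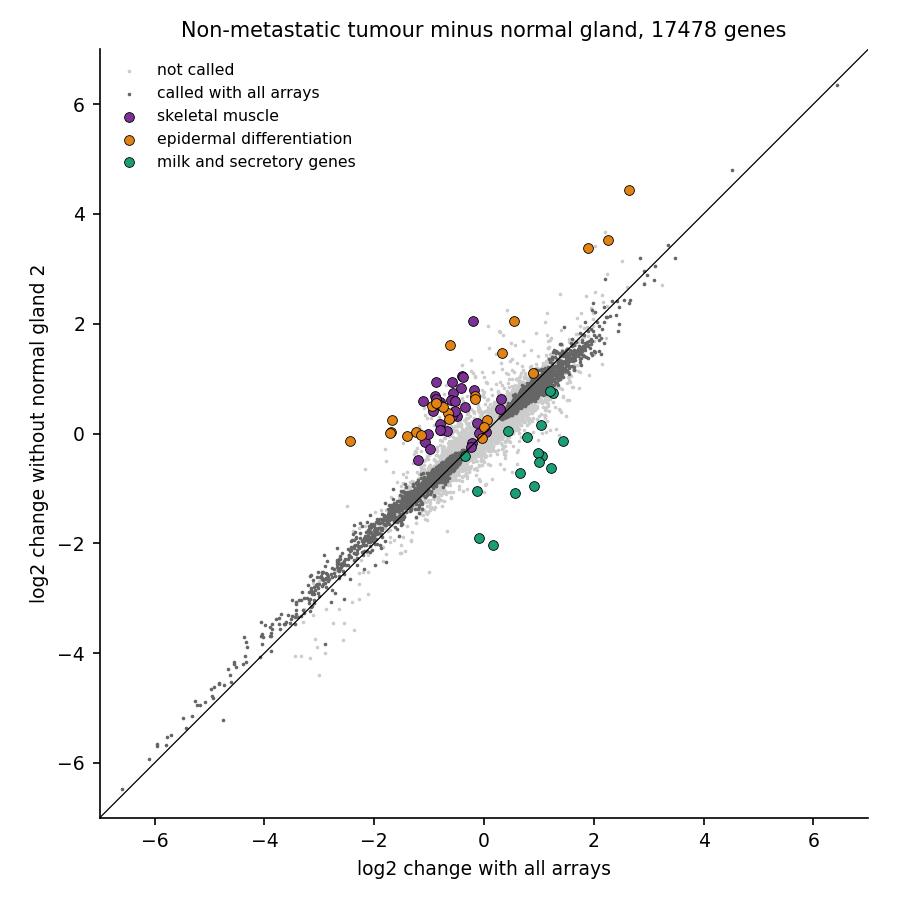
Change of each of 17478 genes (non-metastatic tumour minus normal gland, log2) with all arrays (horizontal) and without normal gland 2 (vertical), with called genes in dark grey and 3 gene lists in colour. Called genes follow the diagonal, since a wide spread among the glands hinders a call. Most muscle and epidermal genes sit above it and most milk genes below it.

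White fat genes were among the lowest in tumours. Of 23 adipocyte identity and lipid storage genes tested, of 25 listed, 19 fell, 0 rose and 4 did not pass, with a median change of -3.62 against 0.05 over all genes. Their count of falls lay between 18 and 20 whichever array was left out, and without normal gland 2 it was 18 with a median of -3.47. Pparg, the transcription factor that commits cells to the adipocyte fate, read 10.70, 11.03 and 9.92 in glands 1 to 3 and 6.00, 5.42 and 6.32 in tumours 1 to 3. All tumours lay below all glands, with a change of -4.63 (SE 0.32, adjusted p = 0.00034), and -4.39 without gland 2. Cebpa, its partner in adipocyte differentiation, fell by 1.82 (SE 0.29, adjusted p = 0.0086) to a tumour level of 8.24 ± 0.08 (SD, n = 3).

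Adipoq, which encodes adiponectin, read 11.05, 11.22 and 10.25 in glands and 7.06, 4.91 and 5.30 in tumours. Tumour 1 kept the highest level of it among the tumours and was still below every gland (change -5.08, SE 0.55, adjusted p = 0.0026). Fabp4, the adipocyte fatty acid carrier, read 13.53, 13.55 and 13.18 in glands and 9.82, 6.14 and 8.00 in tumours. Again tumour 1 was highest and tumour 2 lowest among tumours (change -5.43, SE 0.93, adjusted p = 0.010). Retn, the hormone resistin, fell by 5.79 and Cidec, which fuses lipid droplets, by 5.71, while Plin1 and Plin4, which coat the droplets, fell by 4.82 and 4.92. Lpl, the lipase that frees fatty acids from blood lipoproteins, fell by 3.42. Cd36, a fatty acid transporter, had a change of -3.62 and Slc2a4, the insulin-regulated glucose transporter, one of -2.93. Car3, a carbonic anhydrase abundant in fat, had a change of -4.61 (adjusted p = 0.037), a call lost without gland 1 (0.097), gland 2 (0.099) or gland 3 (0.063).

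The deepest fall of all belonged to a brown fat gene. Ucp1, the uncoupling protein that lets brown and beige fat make heat, read 12.31, 12.36 and 11.75 in glands 1 to 3 and 5.70, 5.60 and 5.38 in tumours 1 to 3. Its change of -6.59 (SE 0.18, adjusted p = 5e-06) corresponds to a fold of 96.1, and was -6.48 without gland 2. Elovl3, a fatty acid elongase of brown fat and sebaceous glands, fell by 6.10, and Cox8b, a cytochrome oxidase subunit of brown fat and muscle, by 5.17. Of 12 thermogenic genes tested, 7 fell and 0 rose, also without gland 2, with a median of -2.32 (-1.98 without it). Cox7a1 fell by 3.18 and Dio2, the deiodinase that activates thyroid hormone, by 0.89. A second, dimmer probe set of Dio2 had a change of -0.11. Cidea had a change of -3.47 (adjusted p = 0.054) and Ppargc1a, the coactivator of mitochondrial genes, one of 0.32 (adjusted p = 0.71).

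Enzymes that make fat fell as well. Among 19 genes of fatty acid and triglyceride synthesis, 14 fell and 0 rose (median -1.77), and 13 fell whichever of the 6 arrays was left out. Fasn, the fatty acid synthase, read 13.30, 13.47 and 13.38 in glands and 11.62, 11.13 and 10.48 in tumours. It was nearly equal in the glands and fell by 2.30 (SE 0.29, adjusted p = 0.0045). Elovl6, which lengthens its product, fell by 3.28 (SE 0.17, adjusted p = 8.6e-05), Acacb, an acetyl-CoA carboxylase, fell by 3.57, and Dgat2, which completes triglycerides, fell by 4.93. Mlxipl, the sugar-sensing transcription factor of lipogenic genes, fell by 3.54, whereas Srebf1, the sterol and insulin-responsive one, differed by 0.17 (SE 0.37, adjusted p = 0.79) with overlapping groups. Scd1, a desaturase, had a change of -1.39 (adjusted p = 0.038) that lost its call when any of the 6 arrays was left out (0.055 to 0.10).

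Most cholesterol synthesis genes did not pass. Of 15 tested, 3 fell and 0 rose, beside 7.6% lower and 11.2% higher over all genes. The median of -0.13 became 0.14 without gland 2 and 0.01 without tumour 3. Insig1, a sterol-regulated brake on the pathway, read 11.82, 11.88 and 11.87 in glands and 9.13, 8.71 and 8.44 in tumours, a change of -3.10 (SE 0.35, adjusted p = 0.0031). Sqle, squalene epoxidase, had a change of 0.51 (adjusted p = 0.27) and Hmgcs1, which acts earlier in the pathway, one of -0.83 (adjusted p = 0.055; 0.0079 without gland 3).

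Of 24 genes of mitochondrial fat oxidation and the TCA cycle, 22 fell and 0 rose, with a median of -1.07. Their count was 20 without gland 2 and between 19 and 22 over the arrays left out. Cs, the citrate synthase, read 11.87, 12.09 and 11.66 in glands and 10.87, 10.63 and 10.87 in tumours (change -1.08, SE 0.14, adjusted p = 0.0045). Sdha, a subunit of succinate dehydrogenase, fell by 1.01 and varied by only 0.01 (SD) among the tumours. Pcx, the pyruvate carboxylase, fell by 3.29. Pdk4, a kinase that shuts pyruvate out of the cycle, fell by 2.93, and Cpt2, of the carnitine shuttle, fell by 1.72. Cpt1a, the liver-type entry enzyme of that shuttle, differed by 0.17 (SE 0.21, adjusted p = 0.61) with overlapping groups. Glycolysis and hypoxia genes showed no common shift. Among 20 tested, 2 rose and 1 fell (median 0.20), and 0 passed without gland 1 or without gland 2. Egln3, an oxygen-sensing hydroxylase, read 8.28, 8.33 and 8.66 in glands and 9.89, 11.25 and 9.97 in tumours (change 1.94, adjusted p = 0.016; 0.051 without gland 2 and 0.056 without gland 1).

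**Figure D3:**
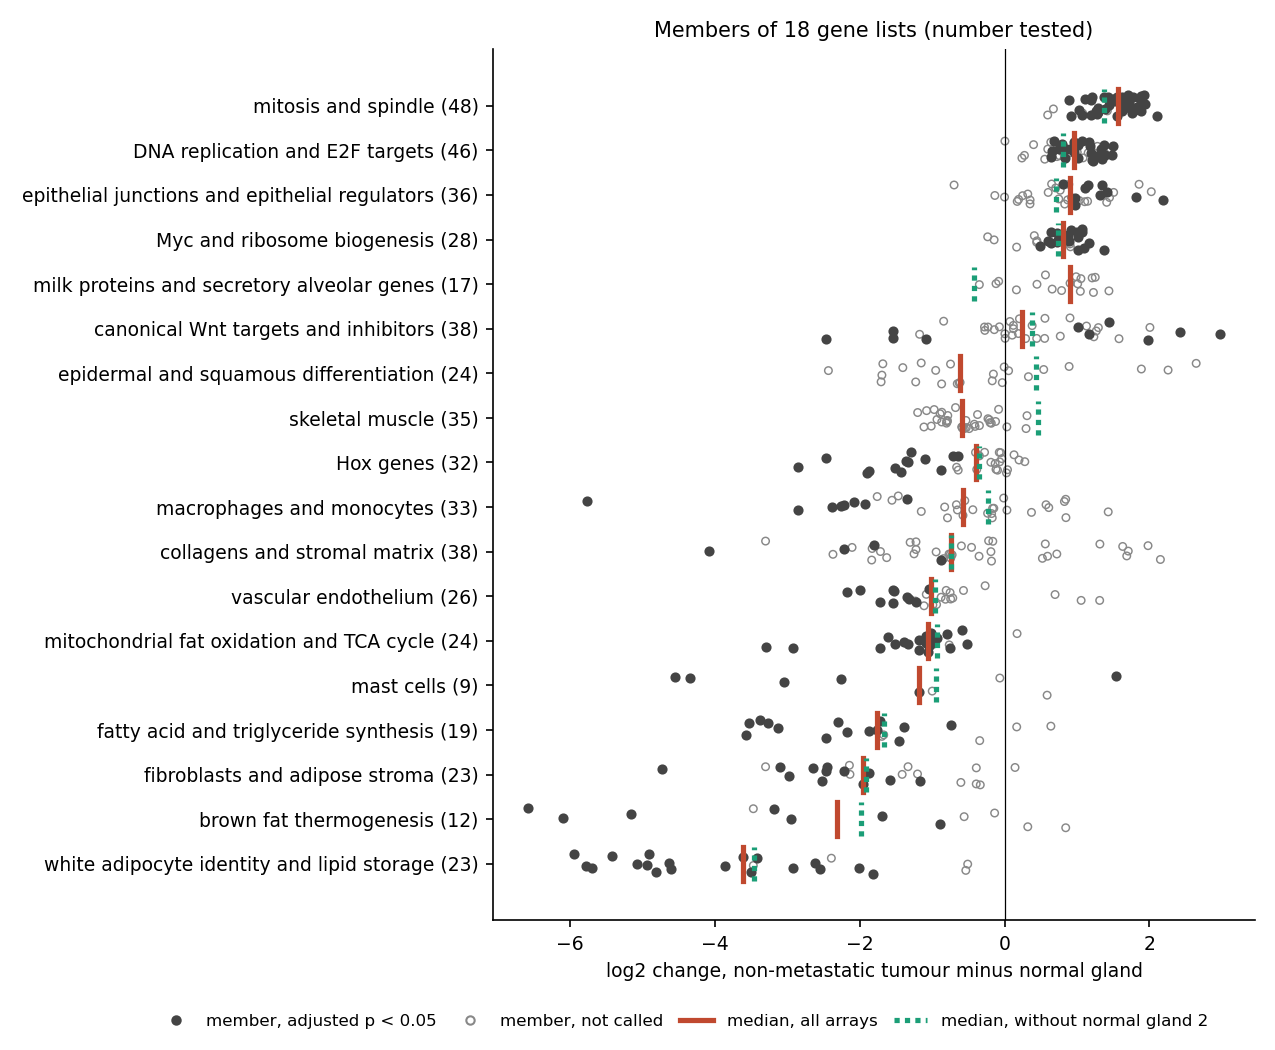
Change of every tested member of 18 gene lists (horizontal axis, log2, non-metastatic tumour minus normal gland), filled where the adjusted p was under 0.05, with the list's median over all arrays (solid red) and without normal gland 2 (dashed green). The 2 medians nearly coincide for most lists and lie on opposite sides of 0 for skeletal muscle, epidermal and milk genes.

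Among fibroblast and adipose stroma genes, 12 of 23 tested fell and 0 rose (median -1.96), with 7 without gland 2, 5 without gland 1 and 17 without tumour 3. Gsn, the actin-severing protein gelsolin, read 12.64, 12.65 and 11.59 in glands and 9.50, 8.45 and 9.63 in tumours (change -3.10, SE 0.43, adjusted p = 0.0057). Cxcl12, a stromal chemokine, fell by 2.52 (adjusted p = 0.0075) and Igf1, a growth factor made by stromal and fat cells, by 2.65 (adjusted p = 0.013), and both calls held with each array left out. Pdgfra, a receptor that marks fibroblasts, read 11.04, 10.83 and 10.64 in glands and 8.17, 7.23 and 10.68 in tumours. Tumour 3 lay within the range of the glands, and the change of -2.14 (adjusted p = 0.098) passed only without it (0.013). Lum, the matrix proteoglycan lumican, read 10.52, 10.06 and 10.37 in glands and 7.47, 4.20 and 9.38 in tumours, with a change of -3.30 (adjusted p = 0.11; 0.045 without tumour 3).

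Collagens varied more between tumours than between the groups. Of 38 collagen and stromal matrix genes, 4 fell and 0 rose (median -0.75). Only 1 fell without gland 1, gland 2, tumour 1 or tumour 2, 2 fell without gland 3, and 12 fell without tumour 3. Without tumour 2, 3 rose. Col3a1, a fibrillar collagen, read 10.87, 10.89 and 11.56 in glands and 9.42, 7.05 and 10.53 in tumours (change -2.11, adjusted p = 0.14). Vcan, the proteoglycan versican, read 7.75, 8.14 and 7.75 in glands and 9.27, 7.96 and 11.46 in tumours (change 1.69, adjusted p = 0.16). Tumour 3 was the highest tumour and tumour 2 the lowest for both. Col5a3, a minor fibrillar chain, kept its call in every fit with an array left out (change -0.88, SE 0.15, adjusted p = 0.010).

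Matrix proteases and their inhibitors went both ways, with 4 of 26 higher and 8 lower. Without gland 2 these were 1 and 3, without gland 1 0 and 3, and without tumour 2 1 and 6. Timp4, a metalloproteinase inhibitor prominent in fat, read 10.25, 10.78 and 7.29 in glands and 5.30, 5.13 and 4.80 in tumours, with gland 3 well below the other glands (change -4.37, SE 0.78, adjusted p = 0.012). Mmp19, a metalloproteinase, fell by 2.20 (adjusted p = 0.0074). Mmp13, a collagenase, rose from 4.84, 5.40 and 4.83 in glands to 6.40, 8.13 and 6.64 in tumours (change 2.03, SE 0.43, adjusted p = 0.018; 0.060 without gland 1). Timp1, another inhibitor, had a change of 1.53 (adjusted p = 0.022), a call lost without gland 1 (0.076), gland 2 (0.074), tumour 2 (0.071) or tumour 3 (0.057).

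Blood vessel genes fell in part. Among 26 endothelial genes, 10 fell and 0 rose (median -1.02), with 5 without gland 1 or gland 2, 6 without tumour 2 and 15 without tumour 3. Kdr, the main VEGF receptor, read 9.99, 10.17 and 9.87 in glands and 8.08, 7.96 and 8.83 in tumours (change -1.72, SE 0.29, adjusted p = 0.0096). Gpihbp1, which anchors lipoprotein lipase to capillaries, fell by 1.54, Nos3, the endothelial nitric oxide synthase, by 1.54, and Egfl7, a protein secreted by endothelium, by 1.35. All of these calls held with each array left out. Cdh5, the endothelial cadherin, read 10.81, 10.89 and 10.72 in glands and 9.35, 9.34 and 10.39 in tumours (change -1.11, adjusted p = 0.058; 0.025 without tumour 3). Pericyte and vascular smooth muscle genes had 0 of 13 past the threshold and a median of -0.29 (0.02 without gland 2).

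Mast cell proteases fell. Mcpt4, a chymase of connective tissue mast cells, read 9.52, 10.47 and 9.03 in glands and 6.47, 3.22 and 5.67 in tumours (change -4.55, SE 0.81, adjusted p = 0.011). Tpsb2, a tryptase, fell by 3.04, Cma1, another chymase, by 2.26, and Ms4a2, a chain of the IgE receptor, by 1.18, each also with any array left out. Cpa3, a mast cell carboxypeptidase, had a change of -4.35 (adjusted p = 0.016; 0.052 without gland 1 or gland 2). Of 9 mast cell genes tested, 5 fell and 1 rose, with 4 falls without gland 1 or gland 2. The one that rose was Kit, a growth factor receptor of mast cells that luminal progenitor cells of the mammary gland express as well. Kit read 10.54, 9.21 and 10.36 in glands and 11.79, 11.21 and 11.72 in tumours (change 1.54, adjusted p = 0.021; 0.055 without tumour 1 and 0.051 without tumour 3).

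Of 33 macrophage genes tested, 8 fell and 0 rose (median -0.58), with 0 without gland 1, 0 without gland 2, 2 without tumour 2, 4 without tumour 1 and 10 without gland 3 or tumour 3. Cd163, a scavenger receptor of resident macrophages, read 8.70, 9.92 and 7.75 in glands and 6.49, 5.39 and 7.31 in tumours. Gland 2 was highest, and the change of -2.39 (adjusted p = 0.029) became -1.82 (adjusted p = 0.075) without it. Retnla, a secreted product of alternatively activated macrophages that fat tissue also makes, had a change of -5.77 (adjusted p = 0.019; 0.062 without gland 2 and 0.061 without gland 1). Other members did not pass. C1qa, a complement chain, differed by -0.18 (SE 0.25, adjusted p = 0.66) and Adgre1, a surface antigen of mature macrophages, by -0.44 (SE 0.40, adjusted p = 0.47), with overlapping groups.

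Of 20 T and NK cell genes, 1 was lower (4 without tumour 1, 2 without gland 2 and 0 without gland 1 or tumour 2). Of 12 B and plasma cell genes, 3 were lower (1 without gland 2 or tumour 3, 0 without tumour 2). Over all genes 7.6% were lower. Cd79a, a B cell receptor chain, read 5.85, 5.78 and 6.39 in glands and 5.29, 4.89 and 4.41 in tumours (change -1.14, adjusted p = 0.019; 0.055 without tumour 2). Among 36 chemokine and cytokine genes, 4 fell and 1 rose, beside 7.6% lower and 11.2% higher over all genes. The fall count was 1 without gland 1, 2 without gland 2, tumour 2 or tumour 3, and 7 without gland 3, while 3 rose without tumour 3. Ccl11, the eosinophil chemokine eotaxin, read 11.33, 10.36 and 9.47 in glands and 7.69, 5.60 and 8.44 in tumours (change -3.14, adjusted p = 0.024; 0.079 without gland 1 and 0.069 without gland 2). Ccr1, a receptor for inflammatory chemokines, was the riser, at 5.99, 6.61 and 6.13 in glands and 7.08, 7.10 and 7.38 in tumours (change 0.94, SE 0.17, adjusted p = 0.012), also with each array left out.

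Hox genes, which keep cells' positional identity along the body axis, fell in 13 of 32 tested and rose in 0 (median -0.40, and between -0.40 and -0.30 under the other scalings). The count was 8 without gland 2 or tumour 2, 6 without gland 1 and 14 without gland 3. Many members were dim. The list's median level was 6.08, 6.40 and 5.96 in glands 1 to 3 and 5.52, 5.44 and 5.57 in tumours 1 to 3. The array medians over all probe sets were 5.80 to 5.94, so typical tumour values lay below them. Hoxc10 read 7.45, 7.65 and 6.72 in glands and 5.23, 5.65 and 5.23 in tumours (change -1.90, SE 0.24, adjusted p = 0.0046). Its neighbours in the Hoxc cluster, Hoxc6, Hoxc9 and Hoxc8, had changes of -2.47, -1.88 and -2.85, the last with an adjusted p = 0.016 that became 0.058 without gland 1 and 0.055 without gland 2. Hoxa9 and Hoxb6, of other clusters, fell by 1.33 and 1.37. Hoxd10 differed by -0.35 (adjusted p = 0.23).

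Of 38 targets and feedback inhibitors of canonical Wnt signalling, 6 rose, 4 fell and 28 did not pass, shares near the 11.2% higher and 7.60% lower over all genes. Their median was 0.25 against 0.05 over all genes. Without gland 2, 3 rose and 3 fell, and without gland 1, 3 rose and 2 fell. Nkd2, a feedback inhibitor that binds Dishevelled, read 7.64, 7.30 and 7.47 in glands and 10.44, 9.64 and 11.25 in tumours (change 2.98, SE 0.41, adjusted p = 0.0058). Tnfrsf19, a receptor of the TNF family, rose from 7.30, 7.84 and 8.46 to 10.05, 9.72 and 11.08 (change 2.42, SE 0.46, adjusted p = 0.014), and Cd44, an adhesion receptor for hyaluronan, rose by 1.98 (adjusted p = 0.0097). These 3 calls held with each array left out. Znrf3, a membrane ubiquitin ligase that removes Wnt receptors, had a change of 1.01 (adjusted p = 0.028), a call lost without gland 1 (0.090), gland 2 (0.072), tumour 2 (0.058) or tumour 3 (0.050).

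Several textbook targets did not pass. Axin2, the scaffold most used as a reporter of the pathway, read 8.06, 8.24 and 7.70 in glands and 8.55, 8.17 and 8.60 in tumours, with overlap (change 0.44, SE 0.19, adjusted p = 0.14). Lef1, a transcription factor of the pathway, had a change of 1.27 (adjusted p = 0.066) without overlap. Wif1, which binds Wnt proteins outside the cell, read 9.24, 7.56 and 9.22 in glands and 9.68, 10.21 and 12.14 in tumours (change 2.01, adjusted p = 0.079). Notum, a lipase that inactivates Wnt proteins, had a change of 1.29 (adjusted p = 0.14) and Lgr5, a stem-cell receptor for R-spondins, one of -0.07 (adjusted p = 0.95). The 4 that fell were Sfrp4 (-2.46), Sfrp5 (-1.54), Twist1 (-1.54) and Ccn5 (-1.08). Sfrp4 and Sfrp5 are secreted antagonists of Wnt proteins, and Twist1 is a transcription factor of mesenchymal cells. The Ccn5 call was lost without gland 1 (0.095), gland 2 (0.10), tumour 1 (0.071) or tumour 2 (0.099), and the Sfrp5 call without gland 1 (0.061).

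Among 43 Wnt ligands, receptors and transducers, 5 rose and 3 fell, a share near the 18.8% called over all genes. Wnt1 was among the former. The rises were 2 without tumour 2, 3 without tumour 3 and 8 without tumour 1, and 4 rose and 3 fell without gland 2. Fzd4, a Frizzled receptor prominent in vessels and fat, read 11.06, 11.24 and 9.66 in glands and 7.52, 7.42 and 7.85 in tumours (change -3.05, SE 0.42, adjusted p = 0.0055). Fzd6, another member of the family, went the other way, from 8.98, 8.56 and 8.92 to 9.89, 9.44 and 9.52 (change 0.79, SE 0.16, adjusted p = 0.015). Wnt4, a ligand that hormone-sensing luminal cells make in response to progesterone, fell by 1.17 (SE 0.22, adjusted p = 0.014). These 3 calls held with each array left out. Lrp5, the co-receptor, rose by 0.60 (adjusted p = 0.015), with an adjusted p of 0.050 without tumour 2.

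Mitosis and spindle genes rose as a block. Of 48 tested, 43 rose and 0 fell, all 48 had a positive change, and the median was 1.56. Without normal gland 2 the count was 23 and the median 1.36. It was 14 without gland 1, 24 without tumour 3, 27 without tumour 2, 32 without tumour 1 and 48 without gland 3, with medians between 1.36 and 1.83. The mitosis score was -1.09, -1.39 and -0.34 in glands 1, 2 and 3 and 0.40, 0.44 and 0.80 in tumours 1, 2 and 3, so gland 3 stood above the other glands and below every tumour. Kif11, the motor that pushes spindle poles apart, read 7.02, 6.68 and 7.75 in glands and 8.81, 8.98 and 9.42 in tumours (change 1.92, SE 0.33, adjusted p = 0.011; 1.68 without gland 2). Ect2, an exchange factor needed for cytokinesis, read 8.10, 7.52 and 8.85 in glands and 10.01, 9.99 and 10.31 in tumours (change 1.94, SE 0.33, adjusted p = 0.0099). Kif2c, which trims microtubules at kinetochores, rose by 1.89 and Foxm1, a transcription factor of mitotic genes, by 1.27, and these 4 calls held with each array left out. Ccnb2, a mitotic cyclin, rose by 1.87 (adjusted p = 0.016; 0.051 without gland 2 and 0.057 without gland 1). Mki67, the proliferation marker Ki-67, had a change of 1.50 (adjusted p = 0.040; 0.075 to 0.11 without gland 1, gland 2, tumour 1, tumour 2 or tumour 3).

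Promoters of mitotic genes are known to hold a cell cycle homology region, TTTGAA, and CCAAT boxes, so these letters were sought in RefSeq promoter windows of build GRCm38.p6, 250 bases before to 50 bases after the annotated start, on both strands. The windows of 40 of the 48 mitosis genes were found, 42 in all. TTTGAA was in 32 of the 42 (76.2%) against 17.9% of all 32851 windows, CCAAT in 29 (69.0%) against 37.4%, and both in 64.3% against 6.95%. Among windows of all genes tested, TTTGAA was in 12.9% and CCAAT in 36.8%. In 1 case the matches overlapped. Matches are descriptions of letters and not of bound sites. Windows of 3 called genes with both motifs are printed from 180 bases before the start to 20 after it, 5′ to 3′ on the gene's strand, with the matches on either strand in capitals.
Kif11 (chr19:37376202-37376401, plus strand): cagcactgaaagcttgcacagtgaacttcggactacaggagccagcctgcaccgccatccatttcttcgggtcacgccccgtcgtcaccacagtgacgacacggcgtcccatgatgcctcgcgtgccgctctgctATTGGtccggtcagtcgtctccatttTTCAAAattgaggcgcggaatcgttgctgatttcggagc
Ccnb2 (chr9:70421535-70421734, minus strand): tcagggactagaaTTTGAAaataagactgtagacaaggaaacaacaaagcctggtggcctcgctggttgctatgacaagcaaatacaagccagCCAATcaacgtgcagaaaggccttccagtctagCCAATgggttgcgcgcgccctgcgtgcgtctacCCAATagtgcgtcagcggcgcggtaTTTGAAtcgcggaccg
Cdc20 (chr4:118437324-118437523, minus strand): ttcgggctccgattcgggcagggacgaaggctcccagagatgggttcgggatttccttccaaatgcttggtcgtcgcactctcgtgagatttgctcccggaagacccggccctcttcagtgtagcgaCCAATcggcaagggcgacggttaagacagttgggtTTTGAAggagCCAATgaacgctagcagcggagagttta
In Kif11 the 2 matches lie at -45 and -19 from the start, both on the opposite strand, and in Cdc20, which activates the ubiquitin ligase that ends mitosis, TTTGAA at -18 lies between CCAAT boxes at -53 and -8. Cdc20 had a change of 1.20 (adjusted p = 0.031), a call lost without any of the arrays except gland 3 (0.057 to 0.093). Ccnb2 holds CCAAT at -87, -54 and -21.

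DNA replication and E2F target genes also rose, by less. Of 46 tested, 27 rose and 0 fell, with a median of 0.95. These calls moved with single arrays. The count was 2 without gland 2, 1 without gland 1, 7 without tumour 2, 8 without tumour 3, 20 without tumour 1 and 40 without gland 3, while the median stayed between 0.81 and 1.24. Ezh2, a histone methyltransferase and E2F target, read 8.62, 8.23 and 8.98 in glands and 9.41, 10.11 and 9.88 in tumours (change 1.19, SE 0.23, adjusted p = 0.013), and its call held with each array left out. Mcm2, a subunit of the replicative helicase, read 7.29, 7.04 and 8.23 in glands and 8.42, 9.06 and 9.20 in tumours. Gland 3 came within 0.2 of tumour 1, and the change of 1.37 (adjusted p = 0.025) was lost without gland 1 (0.084), gland 2 (0.079), tumour 2 (0.079) or tumour 3 (0.066). E2f1, a transcription factor that drives entry into S phase, had a change of 0.00 (SE 0.16, adjusted p = 0.99). The E2F motif GCGGGAA was in 35.4% of 48 windows of these genes against 4.60% of all windows and 6.98% of the windows of all genes tested.

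Of 17 genes of the cyclin D, Rb and CDK inhibitor list, 5 rose and 0 fell, with 3 without gland 1, gland 2 or tumour 2. Cdk4, a partner of the D cyclins, read 10.05, 9.48 and 10.45 in glands and 10.97, 11.09 and 11.44 in tumours (change 1.18, SE 0.23, adjusted p = 0.015). Cdk6, its close relative, rose by 1.04 and Cdk2, which acts at S phase entry, by 0.73, and all 3 calls held with each array left out. Ccnd1, cyclin D1 and a Wnt target, read 10.21, 9.27 and 10.34 in glands and 10.07, 11.56 and 11.88 in tumours. Tumour 1 lay within the range of the glands, and the change of 1.23 (adjusted p = 0.10) passed only without it (0.021). Cdkn2a, which encodes the inhibitors p16 and p19, differed by 0.52 (adjusted p = 0.16).

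Ribosome biogenesis genes rose. Of 28 genes of the Myc and ribosome list, 20 rose and 0 fell (median 0.80), with 13 without gland 1, gland 2 or tumour 2. Nop58, a core protein of small nucleolar ribonucleoproteins, read 9.37, 8.98 and 9.54 in glands and 10.52, 10.75 and 10.74 in tumours (change 1.37, SE 0.17, adjusted p = 0.0043). Npm1, nucleophosmin, rose by 1.02, Polr1a, the large subunit of RNA polymerase I, by 0.91, and Nop2, an rRNA methyltransferase, by 1.17. All 4 calls held with each array left out. Myc itself had a change of 0.90 (SE 0.36, adjusted p = 0.12), with overlap. Smox, the spermine oxidase of polyamine breakdown, read 7.19, 7.08 and 7.68 in glands and 9.71, 10.04 and 8.91 in tumours (change 2.23, adjusted p = 0.0049).

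Of 36 epithelial junction genes tested, 10 rose, 0 fell and 26 did not pass (median 0.90), with 8 without gland 2 or tumour 3, 3 without gland 1 or tumour 2, 5 without tumour 1 and 16 without gland 3. Cdh1, the epithelial cadherin, read 10.43, 10.03 and 10.86 in glands and 11.53, 11.53 and 11.73 in tumours (change 1.15, SE 0.19, adjusted p = 0.0094). Cldn4, a tight junction protein, rose by 1.31 and Elf3, an epithelial transcription factor, by 1.81, and these 3 calls held with each array left out. Cldn1, another claudin, read 8.05, 10.04 and 8.10 in glands and 10.93, 10.85 and 9.98 in tumours. Gland 2 lay within the range of the tumours, and the change of 1.86 (adjusted p = 0.054) was 2.51 (adjusted p = 0.019) without it. Of 15 regulators of the epithelial to mesenchymal transition, 3 fell and 0 rose, with 1 fall without gland 1 or gland 2. Zeb1, a repressor of Cdh1, had a change of -1.73 (adjusted p = 0.015; 0.051 without gland 2 and 0.054 without gland 1).

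Markers of single epithelial lineages passed at shares near or below the 18.8% called over all genes. Of 17 luminal progenitor and alveolar genes, 16 had a positive change (median 1.10, and 0.61 without gland 2) and 2 rose, with 1 without gland 1, tumour 2 or tumour 3 and 0 without tumour 1. Sox10, a transcription factor of mammary progenitors, read 9.19, 6.72 and 9.27 in glands and 10.47, 10.05 and 10.38 in tumours. Its change of 1.91 (adjusted p = 0.060) was 1.07 and passed without gland 2 (adjusted p = 0.018). Elf5, the alveolar regulator, read 9.97, 7.08 and 10.76 in glands and 10.60, 10.56 and 10.03 in tumours, and its change of 1.13 (adjusted p = 0.41) was 0.03 without gland 2. Prom1, the surface protein CD133 of luminal cells, read 6.57, 5.61 and 5.97 in glands and 8.29, 9.57 and 8.25 in tumours (change 2.65, SE 0.39, adjusted p = 0.0068). Among 12 hormone-sensing luminal genes, Prom1 rose and Wnt4 fell. Esr1, the oestrogen receptor, had a change of -1.69 (adjusted p = 0.11) and Gata3, a luminal regulator, one of 0.01 (adjusted p = 0.99). Of 21 basal genes, Itgb4 rose (1.39, adjusted p = 0.046) and Myh11 fell (-2.19, adjusted p = 0.019), and both calls were lost without gland 1 (0.14 and 0.062), tumour 1 (0.12 and 0.052) or tumour 2 (0.11 and 0.057). That of Itgb4 was lost without gland 2 (0.057) and gland 3 (0.090) as well. Without tumour 3, 6 basal genes fell.

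Of 27 FGF pathway genes, 4 rose, 3 fell and 20 did not pass, shares near the 11.2% higher and 7.6% lower over all genes. Among the 27, 15 had a negative change. Without gland 2, 3 rose and 2 fell. The risers were Dusp6, Spred1, Etv4 and Etv5, and those that fell were the ligands Fgf2 and Fgf10 and the intracellular Fgf13. Dusp6, a phosphatase induced by ERK, read 9.87, 9.45 and 9.08 in glands and 10.75, 11.33 and 10.75 in tumours (change 1.48, SE 0.28, adjusted p = 0.014). Etv5, an ETS factor induced by FGF signals, rose by 2.04 (adjusted p = 0.013) and Spred1, an ERK pathway inhibitor, by 0.79 (adjusted p = 0.0099). A second, dimmer probe set of Etv5 had a change of 0.14. Fgf10, a stromal ligand needed to form the gland, read 6.71, 6.72 and 6.90 in glands and 5.43, 5.09 and 5.18 in tumours (change -1.54, SE 0.17, adjusted p = 0.0026), and Fgf2 fell by 1.03. These 5 calls held with each array left out. Of 16 ErbB genes, 3 rose and 1 fell, with 0 rises without gland 1, gland 2 or tumour 2 and 1 without gland 3 or tumour 1. The fall was that of Nrg4, a ligand secreted by fat, from 8.02, 8.27 and 7.51 to 5.96, 5.64 and 5.84 (change -2.12, SE 0.19, adjusted p = 0.0014), which held with each array left out. Tgfa, a ligand of the EGF receptor, read 6.16, 6.94 and 6.08 in glands and 7.04, 8.77 and 9.30 in tumours (change 1.98, adjusted p = 0.037; 0.060 to 0.11 without gland 1, gland 2, gland 3, tumour 2 or tumour 3).

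In the insulin and IGF list 5 of 19 fell and 2 rose, with 4 and 1 without gland 2 or tumour 2, 4 and 0 without gland 1, 6 and 1 without gland 3, and 7 and 1 without tumour 3. Igfbp6, a binding protein that prefers IGF2, read 10.27, 10.09 and 9.49 in glands and 7.20, 6.24 and 7.11 in tumours (change -3.10, SE 0.39, adjusted p = 0.0044), and Ghr, the growth hormone receptor, fell by 2.30. Igf1r had a change of 0.72 (adjusted p = 0.036) and Igf2r one of 0.71 (adjusted p = 0.020), and both lost the call without gland 1 (0.080 and 0.064), gland 2 (0.085 and 0.060) or tumour 2 (0.090 and 0.065). Igf1r lost it without gland 3 (0.078) and tumour 3 (0.052) too, and Igf2r without tumour 1 (0.052). Of 39 TGF-beta and BMP genes, 8 fell and 3 rose, beside 7.6% lower and 11.2% higher over all genes. The falls numbered 6 without gland 2, 3 without gland 1 or tumour 2, 5 without tumour 1 and 11 without gland 3, and 1 rose without gland 1 or gland 2 and 2 without tumour 2. The median of -0.10 became 0.03 without gland 2. Bmp3, a member of the BMP family that opposes the others, read 9.64, 9.49 and 7.46 in glands and 5.79, 5.65 and 5.68 in tumours (change -3.16, SE 0.51, adjusted p = 0.0090). Chrdl1, a secreted BMP antagonist, fell by 3.31 (adjusted p = 0.0089). Bambi, a decoy receptor and Wnt target, rose by 1.17 (adjusted p = 0.016; 0.053 without gland 2 and 0.054 without gland 1). Of 24 Notch genes, 1 fell and 1 rose, both shares below those over all genes. Mfng, a glycosyltransferase that tunes Notch receptors, fell by 2.08 (SE 0.23, adjusted p = 0.0027). Hes6 rose, a call absent without gland 1, gland 2 or tumour 2.

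Beyond the lists, the large rises described here were scattered over functions, and others among the 20 largest are not described. Slc6a15, a transporter of branched-chain amino acids and proline, read 5.59, 4.59 and 5.27 in glands and 7.82, 8.83 and 9.25 in tumours (change 3.48, SE 0.38, adjusted p = 0.0029). Ptprz1, a receptor tyrosine phosphatase, read 6.22, 5.79 and 4.83 in glands and 9.66, 9.18 and 8.06 in tumours (change 3.35, SE 0.56, adjusted p = 0.0099). Gprc5a, an orphan receptor induced by retinoic acid, rose by 3.12 from glands that spanned 5.65 to 5.88. Stk26, a kinase of the germinal centre family, was nearly equal in the tumours at 10.18, 10.22 and 10.16, against 7.72, 6.48 and 7.06 in glands (change 3.10, SE 0.30, adjusted p = 0.0018). Car12, a membrane carbonic anhydrase, rose by 2.84, Slc5a8, a sodium-coupled carrier of lactate and short-chain fatty acids, by 2.46, and Rerg, a small Ras-like GTPase, by 2.34. All 7 calls held with each array left out. Serpinb11, an intracellular serpin, had the largest rise after Wnt1, from 4.35, 5.17 and 4.26 to 7.59, 8.58 and 11.16 (change 4.52, SE 0.90, adjusted p = 0.015; 0.054 without gland 1). Bcl11a, a zinc finger factor, rose by 2.41 (adjusted p = 0.019; 0.062 without gland 1 or gland 2), while its second probe set had a change of 0.37.

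The largest falls outside the lists included Tmem45b, a membrane protein, from 11.33, 11.74 and 10.35 to 5.89, 4.58 and 5.08 (change -5.96, SE 0.41, adjusted p = 0.00034). Orm1, an acute-phase plasma protein, fell by 5.49 and Pnpla3, a lipase of the lipid droplet, by 5.33. Pck1, which feeds glycerol synthesis in fat, fell by 5.26, Abcd2, a peroxisomal fatty acid transporter, by 5.23, and Gys2, a glycogen synthase, by 4.98. Sncg, gamma-synuclein, which adipocytes and neurons express, fell by 4.83. These calls held with each array left out.

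Milk, epidermal and muscle genes gave no call with all arrays, and their medians changed sign without normal gland 2. Of 17 milk and secretory genes 0 passed, 14 had a positive change and the median was 0.90, and without gland 2 the median was -0.42 with 0 passing. Csn2, beta-casein, read 13.78, 9.83 and 13.90 in glands and 13.66, 13.70 and 13.11 in tumours. Gland 2 alone was low, and the change of 0.99 (adjusted p = 0.60) became -0.35 (adjusted p = 0.83) without it. Glycam1, a mucin-like milk protein, read 13.36, 6.88 and 13.52 in glands and 12.85, 10.84 and 10.57 in tumours, with a change of 0.16 that became -2.02 without gland 2 (adjusted p = 0.97 and 0.42). Of 24 epidermal genes 0 passed, and the median of -0.62 became 0.43. Krt10, a keratin of differentiating epidermis, read 6.23, 12.17 and 6.49 in glands and between 6.47 and 6.73 in tumours. Krt77, an eccrine and epidermal keratin, moved most of all genes, from a change of -2.44 to -0.13, since it read 12.32 in gland 2 and between 5.11 and 5.45 in the other 5 arrays. Krt6a, a keratin of stressed and progenitor epithelium, read 4.33, 9.45 and 3.85 in glands and 8.19, 9.38 and 8.00 in tumours, so its change rose from 2.64 (adjusted p = 0.30) to 4.43 (adjusted p = 0.074) without gland 2. Of 35 skeletal muscle genes 0 passed (median -0.58), and without gland 2 the median was 0.46 and Mb, myoglobin, passed (change 0.64, adjusted p = 0.030). Myh4, a fast muscle myosin, read 3.95, 11.46 and 5.52 in glands and 7.82, 4.09 and 8.42 in tumours, so tumours 1 and 3 carried more of it than glands 1 and 3.

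Of the 71 genes called only without gland 2, 5 are described here, each with a change that grew in size without that gland. Such growth requires gland 2 to lie nearer to the tumours than the mean of the other glands. That position was therefore set by the choice of genes. Sox10, described above, is also among the 71, and its change shrank without gland 2. Rspo1, an R-spondin that strengthens Wnt signals and is made by luminal cells, read 10.56, 7.45 and 11.56 in glands and 7.13, 6.88 and 8.42 in tumours. Gland 2 was low like the tumours, and the change of -2.38 (adjusted p = 0.12) became -3.58 (adjusted p = 0.019) without it. Tnfsf11, the ligand RANKL that carries progesterone signals between mammary cells, read 6.66, 5.00 and 7.14 in glands and 5.18, 5.03 and 4.62 in tumours (change -1.33, adjusted p = 0.095, and -1.96, adjusted p = 0.0095, without gland 2). Col6a5, a collagen VI chain, went from -2.57 (adjusted p = 0.093) to -3.76 (adjusted p = 0.014). Klf5, a factor of basal and epidermal epithelium, read 8.06, 9.80 and 8.63 in glands and 10.45, 10.14 and 10.13 in tumours, and its change went from 1.41 (adjusted p = 0.050) to 1.89 (adjusted p = 0.018). Krt23, a keratin, went from 2.03 (adjusted p = 0.054) to 2.58 (adjusted p = 0.040). The muscle, epidermal and milk scores of gland 2 are given above, and their part in these changes was not tested.

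The tumours differed among themselves in several lists. Interferon-stimulated genes scored 2.26 in tumour 1, -0.43 in tumour 2 and -0.08 in tumour 3, against -0.23 to -0.08 in glands. Of 23 tested, 0 passed, and the median of 0.71 became -0.10 without tumour 1. Ifit1, an antiviral protein induced by interferon, read 6.47, 6.72 and 6.60 in glands and 10.96, 6.91 and 7.54 in tumours (change 1.87, adjusted p = 0.18). Oas2, which senses double-stranded RNA, read 11.26 in tumour 1 and 5.90 and 6.99 in tumours 2 and 3. Antigen presentation genes scored 0.84 in tumour 1 and -0.53 in tumour 2, and 0 of 19 passed. Collagen and matrix genes scored -1.40 in tumour 2 and 0.72 in tumour 3, and fibroblast genes -1.65 and -0.04, with endothelial genes at -0.68 and 0.06. Myoepithelial and basal genes scored -1.01 in tumour 1 and 0.45 in tumour 3.

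**Figure D4:**
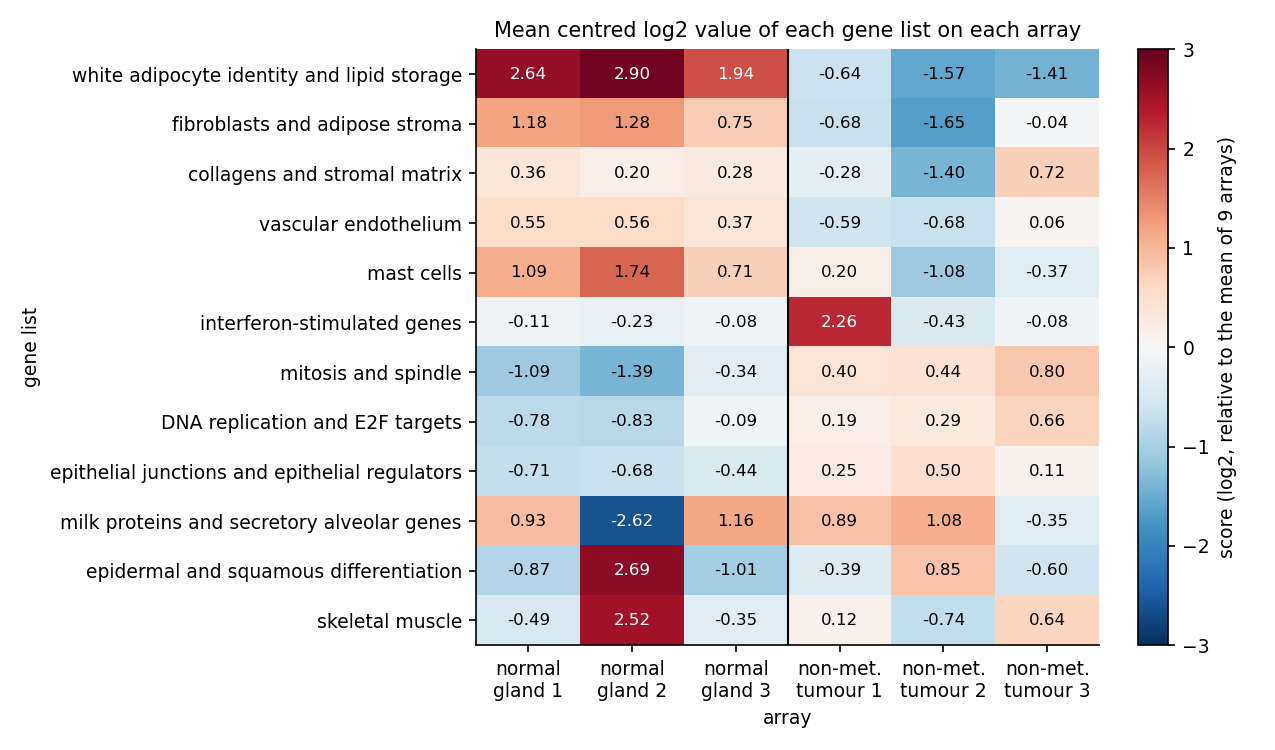
Score of 12 gene lists (rows) on each of the 6 arrays (columns), averaged over members after each gene is centred on its mean of 9 arrays (log2), from blue (low) to red (high). The normal glands score above the tumours in the white fat and fibroblast lists. Gland 3 is the lowest gland there (white fat 1.94, against 2.64 and 2.90 in glands 1 and 2). Gland 2 stands apart in milk, epidermal and muscle lists, and tumour 1 stands apart in interferon genes.

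MicroRNA genes were looked at as a class, chosen after their values were seen. The array reads transcripts from these loci, such as hairpins or host RNA, and not the mature microRNA. Of 228 tested, 20 were called (8.77%, against 18.8% of all genes), 18 lower and 2 higher. Over all genes 7.6% were lower and 11.2% higher, so the share of lower loci was near that of all genes. Without normal gland 2 the numbers were 8 lower and 1 higher. Mature sequences were matched in RefSeq (GRCm38.p6) for 197 of the 228. A microRNA finds its targets mainly through its seed, bases 2 to 8, printed in capitals for 4 of the called loci with their major arms.
let-7c-5p (Mirlet7c-1 and Mirlet7c-2): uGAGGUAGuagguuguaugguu
miR-99a-5p (Mir99a): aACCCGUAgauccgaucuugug
miR-199a-5p (Mir199a-1): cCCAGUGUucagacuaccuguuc
miR-199a-3p (Mir199a-1): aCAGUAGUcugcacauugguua
Mirlet7c-2 (chr15:85706616-85706637, plus strand, for the mature arm) read 7.11, 6.46 and 6.34 in glands and 4.80, 4.26 and 4.76 in tumours (change -2.03, SE 0.29, adjusted p = 0.0063; 0.019 without gland 2). Mirlet7c-1 (chr16:77599672-77599693, plus strand), the other source of the same mature sequence, read 5.95, 5.89 and 5.26 in glands and 4.67, 4.36 and 4.63 in tumours (change -1.15, adjusted p = 0.017). Mir99a, which lies beside it on chromosome 16 (mature arm at chr16:77598940-77598961), had a change of -1.26 (adjusted p = 0.017). Both calls were lost without gland 1 (0.059 and 0.060), gland 2 (0.057 and 0.055) or tumour 2 (0.057 for each). Of 6 tested genes with the seed GAGGUAG, 2 fell, 0 rose and 4 had a negative change, with Mirlet7a-1 at 0.05 and Mirlet7f-1 at 0.60 on the other side. Only loci whose 5p arm was matched are counted there. Mirlet7a-2, for which the 3p arm alone was matched, had a change of -0.42 (adjusted p = 0.034), a call lost without any of the arrays except tumour 3 (0.068 to 0.085). Mir199a-1 read 4.95, 5.09 and 5.18 in glands and 4.37, 4.07 and 4.18 in tumours (change -0.87, SE 0.12, adjusted p = 0.0053), and its call held with each array left out. All of these values lie below the array medians of 5.80 to 5.94, as do the tumour values of Mirlet7c-1 and Mirlet7c-2. Loci this dim can pass the filter on 3 arrays through the glands alone, which favours falls. Whether that happened here was not tested. Of the 2 higher loci, Mir1949 read 5.87, 5.86 and 6.97 in glands and 7.91, 8.19 and 7.65 in tumours (change 1.68, SE 0.32, adjusted p = 0.013), and its call held with each array left out. Mir181b-2 had a change of 0.85 (adjusted p = 0.036; 0.054 to 0.11 with any array left out).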

How the data were processed

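Total RNA of 9 mice was hybridised to Affymetrix Mouse Gene 2.0 ST arrays. The deposited values are log2 signals that the authors made with RMA, per the submitters' processing notes. No RMA version or genome build is stated there. Medians of the arrays spanned 5.80 to 5.94, and no further normalisation was applied. Of 41345 probe sets, 23521 carry 1 gene symbol, and each of 22180 genes was represented by its brightest probe set, by mean of 9 arrays. Genes were tested if 3 or more arrays placed them above the 30th percentile of that array, and 4702 were left out.

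limma 3.58.1 in R 4.3.3 fitted 1 mean per group over 9 arrays (6 residual degrees of freedom), with Benjamini-Hochberg adjustment over 17478 genes and a threshold of 0.05. The metastatic group thus contributes to the spread. The number of arrays limits the precision.

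The members and the 47 gene lists were chosen with earlier results of these data known, and no list was tested as a set. Genes considered for naming were Wnt1 and the 20 largest non-overlapping called changes each way. Also considered were the 5 largest changes, up to 6 best known members and called members against the median's sign in each list. The 15 genes that move most without normal gland 2, and the 10 largest called only with or only without it, were added. Not all of these genes are described in the text. Uninformative symbols were not named. MicroRNA genes and Coch were chosen after their values were seen. Each of the 6 gland and non-metastatic tumour arrays was left out in turn, and scaling, filter, probe set rule, fit and replicate block were varied. Probe sets without a single symbol were kept apart.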

Additional observations from a re-analysis of the deposited data

Results flagged for a closer look

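Coch, which encodes the inner ear protein cochlin, was the gene that differed between the metastatic and non-metastatic groups. It read 7.06, 5.97 and 6.13 in the non-metastatic tumours, with a change of 0.21 against normal gland (adjusted p = 0.68), and was 4.18 higher in metastatic tumours (limma, adjusted p = 0.013).

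Probe sets outside the gene comparison also carried differences between tumours and glands. Of 10232 tested probe sets without a gene symbol, 424 were higher and 369 lower (7.75% called). Of 1347 with several symbols, 139 were higher and 65 lower (15.1% called).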

How the results depend on the processing

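The counts of higher and lower genes ranged from 733 to 2139 and from 612 to 1575 with 1 array left out. They were 3156 and 2204 with array weights, where normal gland 1 had a weight of 7.497, and 794 and 739 when the metastatic arrays were left out of the fit. Requiring an absolute change over 1 left 460 and 755. Same-numbered mice are different animals, so the numbers do not pair samples of 1 animal. Their deviations correlated at 0.014, -0.004 and -0.144. With 3 arrays a group these values cannot decide whether same-numbered arrays were handled together. With the replicate number as a block the counts were 1281 and 969. Centring over all probe sets, chosen after seeing the data, gave 2900 and 1078. The cause of these differences was not tested. Of 232 called genes named or considered for naming, some not described above, none reversed under the alternatives run. The alternatives reuse most of the same values, so a reversal of a called gene was unlikely from the start. Of these, 126 never lost the call where they were tested. With the filter at the 50th percentile, 223 were tested. Medians of the milk, epidermal, muscle, cholesterol, pericyte and TGF-beta and BMP lists changed sign without normal gland 2. With 3 mice per group, the calls near the threshold depend on single arrays.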
